A study of Mus musculus with 7 samples.

Results

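The 39 protein-coding genes of the mouse Hox clusters were examined for peaks of 3 retinoid receptors in liver. The genes were taken by symbol (Hoxa, Hoxb, Hoxc or Hoxd followed by a number) from 20583 protein-coding genes whose start could be placed on GRCm38. The chromatin came from livers of C57BL/6 males, aged 3 months and fed normal chow (control) or food containing retinoic acid (RA). The labels state 1 day of feeding, whereas a longer RA treatment stands in the methods of the study. The receptors were the retinoic acid receptors RARα and RARβ and their partner RXRα, a retinoid X receptor, each precipitated with its own antibody, which gave 1 peak list for each receptor and diet and 6 lists in all. No receptor and diet had more than 1 library, so every difference given here describes these libraries, has no replicate check and was not tested. How many animals went into a library is not given in the sources used here.

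Hox genes encode homeodomain transcription factors that set the identity of body segments along the head-to-tail axis. They lie in 4 clusters, all genes of a cluster being transcribed in the same direction, with the low-numbered paralog groups at the 3′ end and group 13 at the 5′ end. In the embryo, RA induces the 3′ genes earliest and in the most anterior tissue, and RA response elements have been described near Hoxb1, Hoxb4 and Hoxd4. RARs bind such elements as heterodimers with RXRs, usually at direct repeats of the half-site AGGTCA. A peak shows that chromatin carrying the receptor was enriched at a place, and it is not a level of RNA.

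The Hoxa cluster (11 genes) spans chr6:52155367-52260880 on the minus strand. The Hoxb cluster (10 genes) spans chr11:96194316-96368254, the Hoxc cluster (9 genes) chr15:102921131-103036856 and the Hoxd cluster (9 genes) chr2:74668225-74765142, all on the plus strand. Together the clusters measure 492 kb, and 1292 kb with 100 kb added on each side. A gene was counted as having a peak when the midpoint of the peak lay within 10 kb of its start, and the start is the outermost one of the gene's RefSeq span. For Hoxa3, Hoxb3 and Hoxd3 that start lies 5′ of other Hox genes, between Hoxa6 and Hoxa7, between Hoxb5 and Hoxb4 and between Hoxd8 and Hoxd4. Because Hox starts are close together, 1 peak often counts for 2 or more genes, and the genes are not independent of each other.

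The 6 lists held from 14968 peaks (RARβ, control) to 61128 peaks (RXRα, control), with median scores from 76.3 to 145. The score is the peak caller's own measure of each peak, a multiple of the negative logarithm of its p-value, and it was not normalized between libraries. It is therefore read here within a list, and the absence of a peak means only that none passed the caller's limit. The number of reads behind each list is unknown, and its relation to list length was not tested. As a check of the tissue, all 12 hepatocyte genes examined (Alb, Ttr and Hnf4a among them) had an RXRα peak within 10 kb under both diets. For RARα the count was 5 of 12 in control livers and 9 in RA livers, and for RARβ it was 6 and 10. Among genes of other liver cell types, 1 of 4 stellate, 1 of 4 Kupffer, 1 of 4 cholangiocyte and 2 of 4 endothelial genes had an RXRα peak under each diet. For RARα the stellate, Kupffer and cholangiocyte counts were also 1 of 4 each. The endothelial count for RARα was 3 of 4 in control livers and 4 of 4 in RA livers. For RARβ the counts were 0 and 0 stellate, 1 and 1 Kupffer, 0 and 1 cholangiocyte and 0 and 1 endothelial. Over all genes, the control and RA shares were 63.2% and 64.6% for RARα and 45.1% and 55.9% for RARβ. For RXRα they were 62.6% and 62.9%. Liver is a mixture of cell types, and the cells in which a peak arose cannot be told apart.

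In the lists as deposited, RARα was the receptor with peaks near the most Hox genes, and RARβ the one with peaks near the fewest. Under the control diet, 25 of the 39 Hox genes (64.1%, Wilson 95% interval 48.4 to 77.3) had an RARα peak within 10 kb, against 63.2% of all protein-coding genes. Under RA, 24 Hox genes (61.5%, 45.9 to 75.1) had one, against 64.6%. For RXRα, 17 Hox genes (43.6%, 29.3 to 59.0) had a peak under the control diet and 14 (35.9%, 22.7 to 51.6) under RA, against 62.6% and 62.9% of all genes. For RARβ, 5 Hox genes (12.8%, 5.60 to 26.7) had a peak under the control diet, against 45.1%, and 10 (25.6%, 14.6 to 41.1) under RA, against 55.9%. With all deposited peaks, the RARα shares thus lay near those of all genes, and the shares for RXRα and RARβ lay below them. For RARα under the control diet this changed with stricter lists. It had 16 Hox genes (41.0%, against 53.9% of all genes) with a score of at least 100 and 13 (33.3%, against 48.4%) when every list was cut to the length of the shortest. At that length RXRα had the fewest Hox genes, 1 (control) and 2 (RA), against 21.0% and 21.8% of all genes. RARβ then had 5 and 3, against 45.1% and 41.7%. With a score of at least 100 RARβ still had the fewest, 0 and 3, and RXRα had 7 and 6. The intervals treat genes as independent and cover counting error only, whereas the genes counted rested on 17, 13, 2, 9, 12 and 13 distinct peaks in the order RARα control, RARα RA, RARβ control, RARβ RA, RXRα control and RXRα RA.

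**Figure D1:**
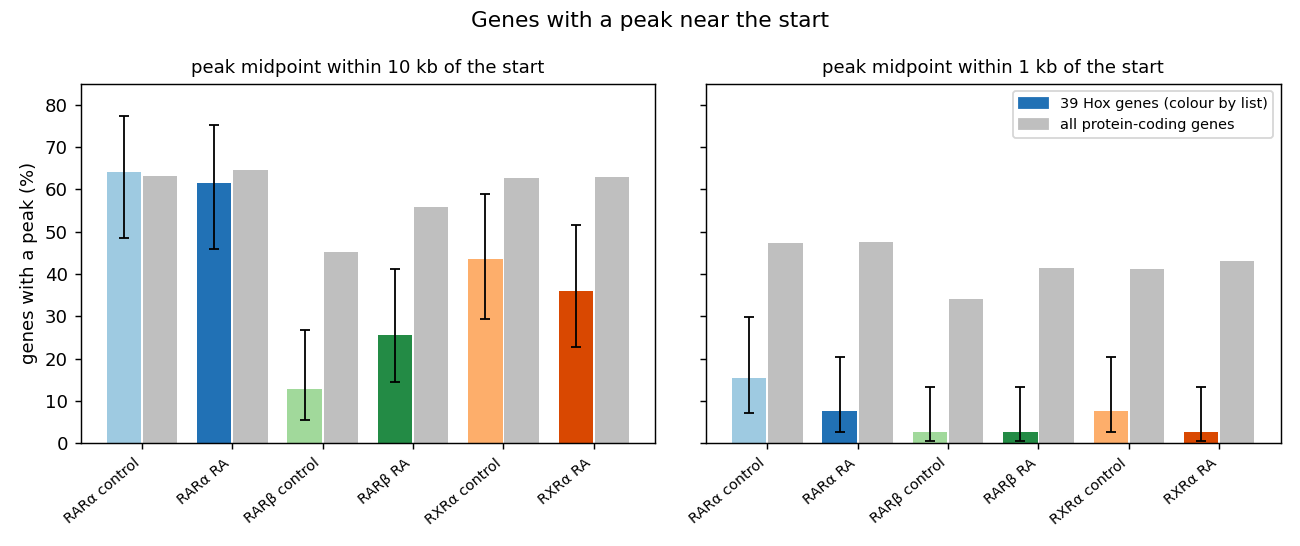
Share of genes (%) with a peak midpoint within 10 kb of the start in each of the 6 lists, for the 39 Hox genes with Wilson 95% intervals as error bars and for all 20583 protein-coding genes. The Hox bars for RARα stand at 64.1% and 61.5%, beside 63.2% and 64.6% of all genes, and those for RARβ at 12.8% and 25.6%, beside 45.1% and 55.9%.

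Close to the start itself, peaks were rare at Hox genes in every list. Within 1 kb, an RARα peak lay at 6 Hox genes under the control diet and at 3 under RA, where 47.3% and 47.6% of all genes had one. An RARβ peak lay at 1 Hox gene under each diet, where 34.1% and 41.5% of all genes had one. An RXRα peak lay at 3 Hox genes under the control diet and at 1 under RA, where 41.3% and 43.1% of all genes had one. Over all lists, 32 of 39 Hox genes had no peak within 1 kb of the start, against 45.5% of all genes. The other 7 were Hoxa4, Hoxa5, Hoxb4, Hoxb5, Hoxb8, Hoxc5 and Hoxc10. Of these, Hoxa5 had such a peak in all 6 lists, as did 25.4% of all genes, Hoxc5 in 3 lists, Hoxb8 in 2 and the remaining 4 genes in 1 list each.

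Within 10 kb, 3 Hox genes had a peak in all 6 lists (Hoxa3, Hoxa5 and Hoxa6), against 39.2% of all genes. These 3 genes share the peaks at the Hoxa5 start. A further 6 had a peak in 5 lists (Hoxa2, Hoxa4, Hoxa7, Hoxa9, Hoxb4 and Hoxd4), against 13.2% of all genes. The list without one was RARβ under the control diet, the shortest list, for each of these Hox genes. At 11 Hox genes no list had a peak in that window, against 26.9% of all genes. These were Hoxb1 and Hoxd1, both of the 3′-most group, with Hoxb2, Hoxb6, Hoxc6, Hoxc9, Hoxa10, Hoxd10, Hoxa11, Hoxc12 and Hoxc13. Hoxb1 patterns the hindbrain, Hoxa10 and Hoxa11 act in the uterus and limb, and Hoxc13 acts in hair and nail.

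**Figure D2:**
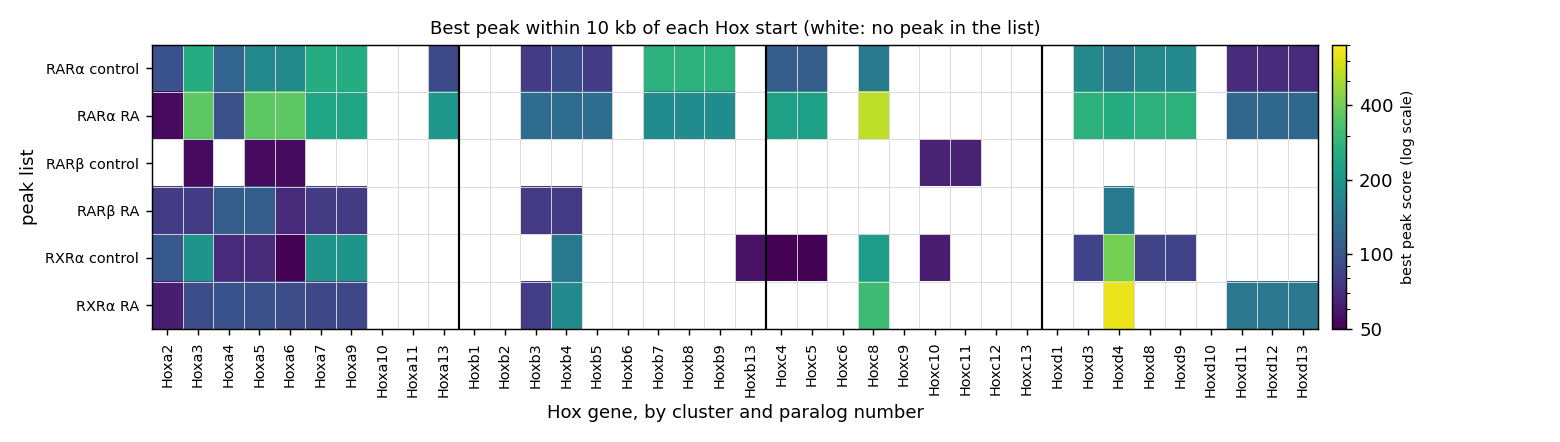
Highest score within 10 kb of the start for 38 Hox genes (columns, by cluster and paralog number) in each of the 6 lists (rows), with blank cells where no peak was called. Blank columns mark the 11 genes without a peak, the RARβ control row is filled for 5 genes, and the highest value is 645 for Hoxd4 in the RXRα RA list.

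Counts differed between the clusters. An RARα peak lay within 10 kb of 9 of 11 Hoxa, 6 of 10 Hoxb, 3 of 9 Hoxc and 7 of 9 Hoxd genes under the control diet. Under RA the counts were 8, 6, 3 and 7. An RXRα peak lay near 7 Hoxa, 2 Hoxb, 4 Hoxc and 4 Hoxd genes under the control diet, and near 7, 2, 1 and 4 under RA. RARβ peaks under the control diet were near 3 Hoxa and 2 Hoxc genes and near no Hoxb or Hoxd gene. Under RA they were near 7 Hoxa, 2 Hoxb and 1 Hoxd gene and near no Hoxc gene. The Hoxc cluster had the fewest genes near an RARα peak, and in the RA lists it had RARβ peaks near no gene and RXRα peaks near Hoxc8 alone. All protein-coding genes gave 63.2% (control) and 64.6% (RA) with RARα, 45.1% and 55.9% with RARβ, and 62.6% and 62.9% with RXRα. Against these, the Hoxa share was higher for RARα, slightly higher for RXRα, and higher for RARβ in the RA list only. The Hoxd share was higher for RARα, and every other cluster share was lower, that of Hoxb for RARα only slightly. These shares rest on few genes and were not tested.

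The clusters were also read by paralog group, since the groups are ordered along each cluster. The outermost starts used here break that order for Hoxa3, Hoxb3 and Hoxd3, which were counted at places 5′ of genes of higher groups. In groups 1 to 4, the 1 gene with an RARβ peak under the control diet was Hoxa3, through the peak at the Hoxa5 start. Under RA, 6 of 12 genes of groups 1 to 4, 3 of 11 genes of groups 5 to 8 and 1 of 16 genes of groups 9 to 13 had an RARβ peak within 10 kb. Under the control diet these counts were 1, 2 and 2. The RXRα counts were 7, 6 and 4 in the control list and 6, 4 and 4 in the RA list. The RARα counts were 9, 9 and 7 in the control list and 8, 9 and 7 in the RA list. Over all genes the RARβ shares were 55.9% under RA and 45.1% under the control diet, so the RARβ counts under RA were below that level in each class. The shares over all genes were 63.2% (control) and 64.6% (RA) for RARα and 62.6% (control) and 62.9% (RA) for RXRα. In the RA list RARβ was near the fewest genes in groups 9 to 13, and the counts of the other receptors were also lowest there, relative to the number of genes. These counts rest on few distinct peaks and were not tested.

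Between the diets, RARα kept peaks near the same 24 Hox genes, though not always the same peaks, while RARβ had more and RXRα fewer under RA. An RARα peak lay within 10 kb of 24 Hox genes under both diets (60.8% of all genes), of no Hox gene under RA only (3.81%), of 1 under the control diet only (2.47%) and of 14 under neither (32.9%). An RARβ peak lay near 3 Hox genes under both diets (42.6% of all genes), near 7 under RA only (13.3%), near 2 under the control diet only (2.55%) and near 27 under neither (41.6%). The 7 genes were Hoxa2, Hoxa4, Hoxa7, Hoxa9, Hoxb3, Hoxb4 and Hoxd4, and the 2 genes were Hoxc10 and Hoxc11, which share 1 peak of score 65.2. An RXRα peak lay near 10 Hox genes under both diets (58.8% of all genes), near 4 under RA only (4.15%), near 7 under the control diet only (3.82%) and near 18 under neither (33.2%). The 4 genes were Hoxb3, Hoxd11, Hoxd12 and Hoxd13, and the 7 were Hoxb13, Hoxc4, Hoxc5, Hoxc10, Hoxd3, Hoxd8 and Hoxd9. Over all protein-coding genes, the RA list had 276 more genes with a peak for RARα, 2218 more for RARβ and 68 more for RXRα. When every list was cut to its 14968 highest scores, the RARβ count was 5 under the control diet (45.1% of all genes) and 3 under RA (41.7%), so the higher RARβ count under RA was not there at equal list length, for Hox genes or for all genes. At that length RARα had 13 Hox genes (48.4% of all genes) and 16 (44.3%), the Hox count being higher and that of all genes lower under RA. RXRα had 1 (21.0%) and 2 (21.8%), both higher under RA. With peaks of a score of at least 100, the RARβ count was 0 under the control diet (23.1% of all genes) and 3 under RA (41.2%).

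In the clusters with their flanks of 100 kb, 22 RARα, 5 RARβ and 24 RXRα peaks were called in the control lists, and 25, 16 and 25 in the RA lists. Inside the clusters proper, this came to 32.5 RARα, 4.06 RARβ and 24.4 RXRα peaks per Mb under the control diet and to 30.5, 22.4 and 30.5 under RA. The flanks held 7.50, 3.75 and 15.0 per Mb in the control lists and 12.5, 6.25 and 12.5 in the RA lists. Clusters and flanks together held 17.0, 3.87 and 18.6 peaks per Mb in the control lists and 19.3, 12.4 and 19.3 in the RA lists. All protein-coding genes extended in the same way held 18.1, 7.66 and 30.4 in the control lists and 22.4, 14.9 and 29.6 in the RA lists. The extended clusters were thus below the density of all extended genes in each list. In each list the clusters were denser in peaks than their flanks, although for RARβ under the control diet this rests on 2 peaks inside and 3 in the flanks. Measured only within 10 kb of a start, density at Hox genes was below that at all genes in each list, from 38.1 against 43.2 per Mb for RARα under the control diet to 4.49 against 24.8 for RARβ under the control diet.

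**Figure D3:**
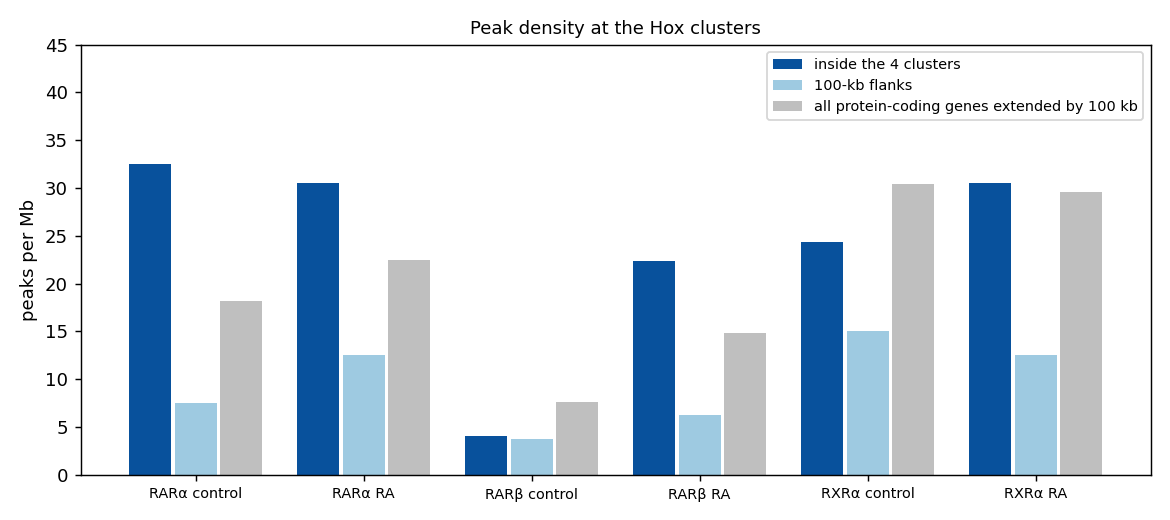
Peaks per Mb in each of the 6 lists inside the 4 Hox clusters, in their flanks of 100 kb and over all protein-coding genes extended by 100 kb. The bars inside the clusters are higher than those of the flanks in each list. For RARα under both diets, RARβ under RA and RXRα under RA (30.5 against 29.6) they are also higher than the bars of all genes. The bars of all genes include flanks, and clusters with flanks together had a lower density than all genes in each list.

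Scores at the Hox clusters were set against those of the whole lists. The highest score in the extended clusters was 278 for RARα under the control diet, above 84.5% of that list, and 537 under RA, above 97.4%. For RARβ it was 68.8 under the control diet, above 41.0% of the list, and 190 under RA, above 83.7%. For RXRα it was 627 and 911, above 94.4% and 97.8%. Under the control diet none of the 5 RARβ peaks reached a score of 100, which 32.0% of the RARβ control list did. Under RA, 5 of 16 RARβ peaks (31.3%) reached it, against 49.7% of that list.

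**Figure D4:**
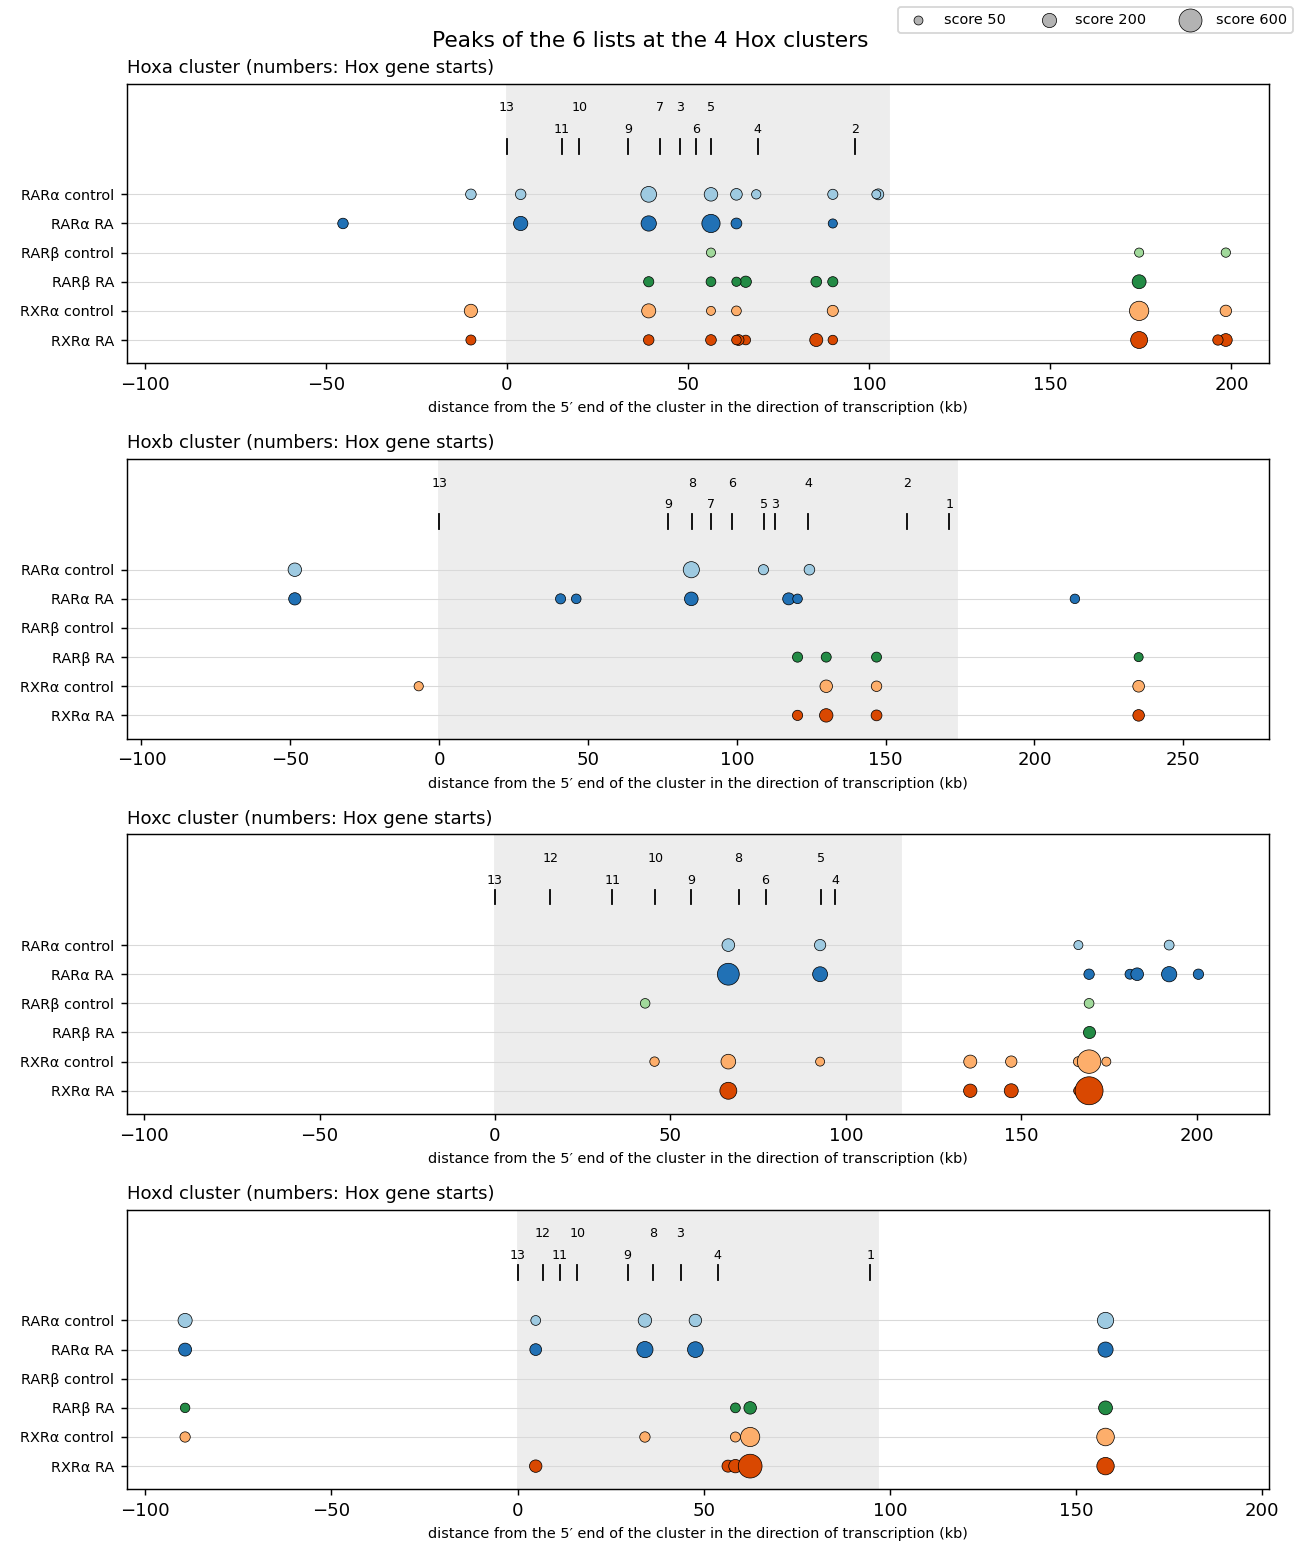
Peaks of the 6 lists (points, larger for a higher score) along each of the 4 Hox clusters, against distance from the 5′ end of the cluster in the direction of transcription (kb), with the cluster shaded and the starts of 38 Hox genes marked by paralog number. RARα points are spread over the clusters, and the RARβ RA points inside the Hoxb and Hoxd clusters lie at or 3′ of the stretch between Hoxb3 and Hoxb4 and of Hoxd4.

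Merging overlapping peaks of the 6 lists gave 50 regions, of which 30 were inside the clusters. Of these 30, 7 had their midpoint within 1 kb of a Hox start, and 18 lay inside the span of a Hox gene and 12 between Hox genes. Many of the 18 lay only inside the long spans of Hoxa3, Hoxb3 or Hoxd3, which run over other Hox genes. The region at the Hoxa5 start was the only one of the 50 called in all 6 lists (2%, Wilson 95% interval 0.354 to 10.5), against 9.75% of all 87802 regions. It is also the only place where a peak overlapped a Hox promoter window held in the RefSeq table. Such a window runs from 250 bases before to 50 bases after the start, and the table held 22 of the Hox genes. Peaks of 5 lists, all except RARβ under the control diet, overlapped the Hoxa5 window. This cannot set Hoxa5 apart, because Hoxa4, Hoxb5, Hoxc5 and Hoxc10 have no window in the table. At Hoxb5 (chr11:96303000-96303540) and Hoxc5 (chr15:103013544-103014041), an RARα control peak covered the start itself. The Hoxb8 window lies at another start than the outermost one, beside which RARα was called. Hoxa5 is known for its part in lung and axial patterning. The 250 bases before its start (chr6:52204588-52204837 of GRCm38.p6, minus strand, from RefSeq) and the half-site that follows the start are shown because they lie in this region, with the half-site AGGTCA in capitals where it occurs.
Hoxa5 upstream: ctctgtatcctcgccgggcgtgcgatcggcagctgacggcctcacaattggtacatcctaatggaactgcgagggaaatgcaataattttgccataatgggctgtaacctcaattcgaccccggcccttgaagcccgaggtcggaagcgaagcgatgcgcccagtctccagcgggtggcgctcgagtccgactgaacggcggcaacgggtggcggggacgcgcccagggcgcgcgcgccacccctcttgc
Hoxa5 after the start: gtttacctctagAGGTCAtca
The upstream stretch is 63.6% G and C and holds no AGGTCA on either strand, and the stretch shown after the start lies at chr6:52204538-52204558. The region itself (chr6:52204135-52204961) had a score of 176 for RARα under the control diet and 360 under RA. Its RARβ scores were 54.1 and 68.8 and its RXRα scores 50.98 and 93.0. Against its own list, the RARα peak stood above 69.1% of scores under the control diet and above 90.3% under RA. The RARβ and RXRα peaks stood no higher than above 30.8% of their lists. RARα was thus the receptor with the higher rank at Hoxa5 under both diets.

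The half-site AGGTCA, searched on both strands as AGGTCA or TGACCT, occurred in 7 of the 24 Hox promoter windows in the table and in 16.3% of all 32851 windows. Direct repeats of it, that is AGGTCA followed on the same strand by AGGTCA with 1, 2 or 5 bases of any kind between, were found in 0 of the 24 windows, and in 0.0396%, 0.00913% and 0.00913% of all windows. Exact repeats are so rare in all windows that their absence from 24 cannot set the Hox windows apart. Repeats of half-sites that differ from AGGTCA were not searched. The sites of the other 6 windows are given with 12 bases on each side, the half-site in capitals, to show that their neighbouring bases differ. No peak of any list overlapped these 6 windows. For Hoxd10 and Hoxc4 the window belongs to another start than the outermost one.
Hoxd3, chr2:74711820-74711849: tagacctttttaTGACCTatttgcggtcgt
Hoxd4, chr2:74721821-74721850: ttgatatgaataTGACCTctctcgcattct
Hoxd8, chr2:74704468-74704497: ttcgctttgataAGGTCAggattcggaggc
Hoxd10, chr2:74691810-74691839: ctggggaacacgTGACCTgcaaggaggctg
Hoxb4, chr11:96318174-96318203: tcagcgcccctaTGACCTagtgggtaccca
Hoxc4, chr15:103034237-103034266: ggcgctgccctgTGACCTacacagactgca
No GRCm38 sequence under the peaks themselves was used here, so whether peaks away from the starts hold such repeats was not tested.

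Regions were grouped by the receptors called there under either diet. RARα alone was called at 18 of the 50 regions (36.0%, Wilson 95% interval 24.1 to 49.9), against 16.4% of all regions. Of these 18, 5 were called under both diets, 5 under the control diet only and 8 under RA only. RARβ with RXRα and without RARα was called at 9 (18%, 9.77 to 30.8), against 6.88%. RXRα alone was called at 8 (16.0%, 8.34 to 28.5), against 36.3%, and all 3 receptors were called at 8 (16.0%), against 25.8%. RARα with RXRα was called at 6 regions (12%, against 10.9%) and RARβ alone at 1 (2%, against 1.99%). No region had RARα with RARβ and without RXRα (against 1.72%). For RARα alone, RARβ with RXRα, and RXRα alone, the share over all regions lay outside the interval of the Hox share.

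**Figure D5:**
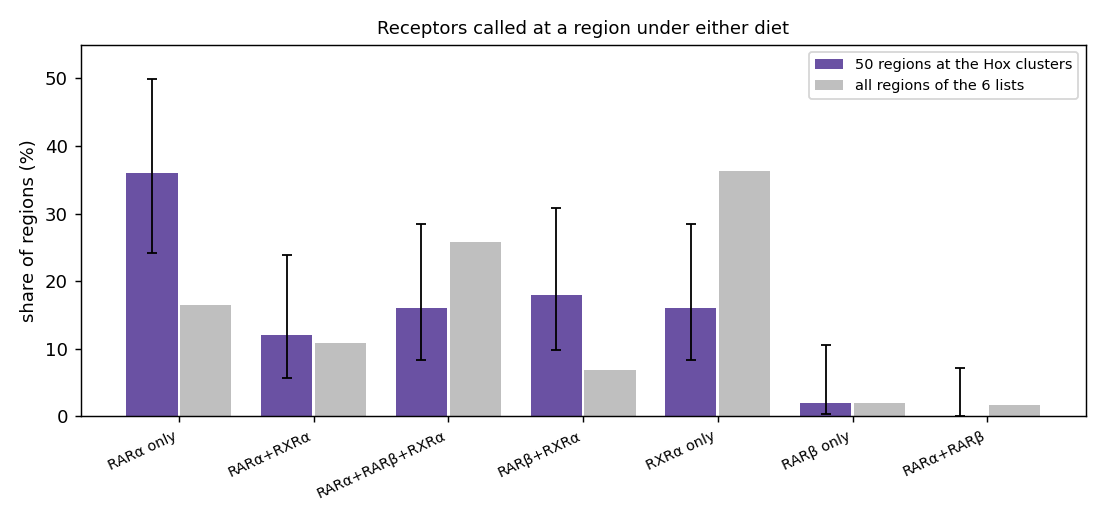
Share of regions (%) by the receptors called there under either diet, for the 50 regions at the Hox clusters with Wilson 95% intervals as error bars and for all 87802 regions. RARα alone stands at 36.0% beside 16.4%, RARβ with RXRα at 18% beside 6.88%, and RXRα alone at 16.0% beside 36.3%.

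The regions of RARβ with RXRα and without RARα had a narrow range of positions inside the clusters, which was noticed after the values were seen. Of the 9, 6 were inside a cluster, and the nearest Hox start of each of these 6 belonged to group 2 or 4. All 6 also lay inside the span of Hoxa3, Hoxb3 or Hoxd3, whose outermost start lies 5′ of other Hox genes. The group of the nearest start thus depends on the use of 1 start per gene. For comparison, 17 of all 30 regions inside the clusters were nearest to a gene of groups 1 to 4, and so were 6 of the 11 inside regions of RARα alone. At 7 of the 9, RARβ was called under RA only, at 1 under the control diet only and at 1 under both diets. RXRα was called under both diets at 7 of the 9 and under RA only at 2.

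The highest-scoring of these regions lay 8.71 kb 3′ of the Hoxd4 start, at chr2:74730400-74730974, beyond Hoxd4 and inside the longer span of Hoxd3. It had an RXRα score of 405 under the control diet and 645 under RA, above 85.9% and 94.2% of those lists. Its RARβ score was 145 under RA, above 71.4% of the list, and no RARβ peak was called under the control diet. RARα was called there under neither diet. Hoxd4 acts in the hindbrain and cervical vertebrae, and its start also had RARα peaks within 10 kb, with scores of 143 and 255. Those lay on the 5′ side, at chr2:74715763-74716196 within 1 kb of the start of the noncoding RNA gene Hoxd3os1, where only RARα was called. RARα and RARβ thus had their peaks near Hoxd4 on opposite sides of its start. RXRα alone was called under RA at chr2:74724486-74724990, 2.76 kb 3′ of the Hoxd4 start, with a score of 130.

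Next to it, at chr2:74726411-74727044, a region of RARβ with RXRα lay within 1 kb of Mir10b, a microRNA gene on the 3′ side of the Hoxd4 start. Its RXRα scores were 75.8 (control) and 172 (RA), and its RARβ score was 70.2 under RA. Of the 5 microRNA genes examined, those of the Mir10 and Mir196 families, Mir10b was the only one with a peak midpoint within 1 kb of the start. For Mir10a, in the Hoxb cluster, an RARα peak of score 90.3 lay 1.54 kb downstream of the start under the control diet, and all 3 RA lists and RXRα under the control diet also had a peak within 10 kb. Mir196b had peaks of 5 lists 8.32 to 8.47 kb away, those upstream of Hoxa7. Mir196a-2 had the control peaks of RARβ and RXRα near Hoxc10 within 10 kb, and for Mir196a-1 no peak was called within 10 kb. The 5p mature sequences are shown, from RefSeq, with the seed (bases 2 to 8) in capitals, because the 2 families examined differ in this seed.
miR-10b-5p: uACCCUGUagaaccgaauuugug
miR-10a-5p: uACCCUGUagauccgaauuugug
miR-196a-5p: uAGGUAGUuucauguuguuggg
miR-196b-5p: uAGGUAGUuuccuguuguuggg
The pair from Mir10a and Mir10b shares the seed ACCCUGU, and the pair from the Mir196 genes shares AGGUAGU. Mir196a-1 and Mir196a-2 give the same 5p sequence.

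In the Hoxb cluster, RARβ and RXRα were called together at 3 regions, all 3′ of the Hoxb3 start. At chr11:96324148-96324561, 6.09 kb 3′ of the Hoxb4 start, the RXRα score was 144 in the control list and 173 in the RA list, and the RARβ score was 75.1 under RA. At chr11:96340937-96341571, 10.4 kb 5′ of the Hoxb2 start, the RXRα scores were 86.6 and 95.6 and the RARβ score was 74.6 under RA. Hoxb4 is known for its action in blood stem cells and Hoxb2 for its action in the hindbrain. At neither region was RARα called. At chr11:96314440-96314995, 3.55 kb 5′ of the Hoxb4 start, all 3 receptors were called under RA (RARα 65.3, RARβ 78.1, RXRα 80.4) and none under the control diet. It was the only one of the 50 regions called by all 3 receptors in the RA lists and by none in the control lists, and its scores were in the lower part of each list.

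At the other regions inside the Hoxb cluster, RARα alone was called. At the Hoxb8 start (chr11:96278744-96279321, midpoint 0.37 kb upstream) the RARα score was 272 in the control list and 180 in the RA list, and no RARβ or RXRα peak was called. This region lay within 10 kb of the starts of Hoxb7, Hoxb8 and Hoxb9, and was the highest-scoring RARα peak for each of them. RARα was also called under the control diet alone at the Hoxb5 start (79.3) and at the Hoxb4 start (90.3), and under RA alone 4.64 kb inside Hoxb3 (128). Under RA alone there were also peaks of 78.1 and 65.8 in the wide gap between Hoxb13 and Hoxb9. Of these 6 RARα regions, the one at Hoxb8 was called under both diets.

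In the Hoxa cluster, 3 regions besides the one at Hoxa5 were called in 5 lists. Upstream of Hoxa7, at chr6:52221403-52222064, the RARα score was 255 under the control diet and 239 under RA. The RXRα score there was 196 and 88.2, and an RARβ peak of 79.6 was called under RA only. This region counted for Hoxa3, Hoxa7 and Hoxa9, of which Hoxa9 is known in blood cell precursors. Upstream of Hoxa4, at chr6:52197213-52197822, the RARα scores were 118 and 96.0, the RXRα scores 68.7 and 64.1 and the RARβ score 56.9 under RA. At 6.09 kb 5′ of the Hoxa2 start, at chr6:52170571-52171262, the RARα scores were 78.8 and 54.2, the RXRα scores 103 and 62.5 and the RARβ score 79.2 under RA. All of the regions called in 5 lists inside the Hoxa cluster thus lacked the same peak, that of RARβ under the control diet.

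A pair of Hoxa regions had peaks of RARβ and RXRα in the RA lists and in no other list. At chr6:52175262-52175701, 10.7 kb 5′ of the Hoxa2 start, the scores were 93.4 for RARβ and 161 for RXRα. At chr6:52194656-52195241, 3.25 kb 5′ of the Hoxa4 start, they were 108 and 66.3. Hoxa2 patterns the hindbrain and the second pharyngeal arch. Near Hoxa13, the limb and genital gene at the 5′ end, an RARα peak at chr6:52256815-52257341 scored 86.7 under the control diet and 201 under RA, with no RARβ or RXRα peak there. On the other side, 9.94 kb 5′ of the Hoxa13 start, a region at chr6:52270449-52271193 had RXRα scores of 168 and 75.6. Its RARα score was 89.8 under the control diet only. The midpoints of these RXRα peaks lay beyond 10 kb, so they did not count for Hoxa13.

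In the Hoxc cluster, the peaks near Hox starts were mainly at 2 places. Upstream of Hoxc8, which acts in the thoracic skeleton and motor neurons, a region at chr15:102987403-102987867 had RARα scores of 149 and 537. Its RXRα scores were 217 and 304, and no RARβ peak was called. The RARα score under RA, above 97.4% of its list, was the highest of any RARα peak at the Hox clusters, whereas that under the control diet was above 62.7% of its list. At the Hoxc5 start (chr15:103013527-103014041) the RARα scores were 109 and 224, and RXRα was called under the control diet alone at 50.6, at the lower limit of the list. Around Hoxc10, a hindlimb and lumbar gene, there was an RARβ peak of 65.2 and an RXRα peak of 61.7, both under the control diet alone and not at the same place.

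In the 5′ part of the Hoxd cluster, RARα was called with RXRα and without RARβ. Near Hoxd12, at chr2:74672826-74673374, the RARα scores were 70.1 and 122 and the RXRα score was 142 under RA only. This region counted for Hoxd11, Hoxd12 and Hoxd13, genes known for patterning the limb and digits. Upstream of Hoxd8, at chr2:74702225-74702626, the RARα scores were 173 and 273 and the RXRα score was 84.9 under the control diet only, and it counted for Hoxd3, Hoxd8 and Hoxd9. The RXRα counts under 1 diet only in Hoxd therefore came from these regions, 1 for each diet. In each of the 3 Hoxd regions with RARα inside the cluster, the RARα peak stood above 24.0%, 68.5% and 61.2% of the scores of the control list and above 49.9%, 82.1% and 79.9% of those of the RA list. These ranks come from lists of different length and are not levels of binding.

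The flanks held 20 regions, and the pair with the highest scores away from a gene start lay on the 3′ side. The 3′ flanks held 9 RXRα peaks under each diet, and the 5′ flanks held 3 in the control list and 1 in the RA list. For RARβ the 3′ flanks held 3 and 4 and the 5′ flanks 0 and 1, and for RARα they held 3 and 7 against 3 and 3. In the Hoxc flank, 72.3 kb 3′ of the Hoxc4 start, a region at chr15:103089723-103091165 had RXRα scores of 627 and 911, the highest of any list at the clusters. Its RARβ scores were 68.8 and 133, and an RARα peak of 85.4 was called under RA only. In the 3′ flank of the Hoxa cluster, a region at chr6:52085951-52086751 had RXRα scores of 409 and 304 and RARβ scores of 54.2 and 190, with no RARα peak. The highest RARβ score of the Hoxa window under the control diet, 58.8, was at chr6:52062164-52062668 in the same flank, where RXRα scored 113 and 153. RARα alone was called at 4 regions of the Hoxc flank, 1 of them at chr15:103104089-103104206 with a score of 149 under RA only. In the Hoxd flanks the regions were at the starts of other genes, Lnpk on the 5′ side and Mtx2 on the 3′ side. At Mtx2, which encodes a mitochondrial outer membrane protein, the RARα scores were 278 and 234, the RXRα scores 332 and 324 and the RARβ score 186 under RA. Of the 7 other protein-coding genes with a start in the extended clusters, Lnpk, Mtx2 and Evx1 were the ones with a peak within 10 kb in any list.

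Peaks at the Hox clusters were also compared between lists by overlap of at least 25% of the width of each peak. For RARα, 15 of 22 control peaks (68.2%, Wilson 95% interval 47.3 to 83.6) overlapped an RA peak, against 84.2% of the whole list, and 15 of 25 RA peaks (60.0%) overlapped a control peak, against 68.4%. For RXRα, 18 of 24 control peaks (75.0%, 55.1 to 88.0) were shared, against 78.7%, and 18 of 25 RA peaks (72.0%), against 80.3%. For RARβ, 2 of 5 control peaks (40%, 11.8 to 76.9) were shared, against 75.8%, and 2 of 16 RA peaks (12.5%, 3.50 to 36.0), against 38.2%. The share of the whole list lay above the interval for the RARα control peaks and the RARβ RA peaks and inside it for the others. RARβ peaks of both diets were called in 3 regions, those at the Hoxa5 start and in the Hoxa and Hoxc flanks, and in 2 of them the peaks overlapped by that width.

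Between receptors, nearly all RARβ peaks under RA lay at RXRα peaks, a share near that of the whole list, while fewer RARα peaks did. Under RA, 15 of 16 RARβ peaks (93.8%, Wilson 95% interval 71.7 to 98.9) overlapped an RXRα peak, against 89.9% of the whole RARβ list, and these were 15 of 25 RXRα peaks (60.0%), against 44.8%. For RARα under RA, 9 of 25 peaks (36.0%, 20.2 to 55.5) overlapped an RXRα peak, against 61.7%, and they were 36.0% of the RXRα peaks, against 45.5%. Under the control diet, 11 of 22 RARα peaks (50%, 30.7 to 69.3) overlapped an RXRα peak, against 61.1%, and these were 45.8% of the RXRα peaks, against 36.0%. Of the 5 RARβ control peaks, 4 overlapped an RXRα peak (80.0%, against 77.8%), which was 16.7% of the RXRα peaks, against 19.0%. Of the RARβ peaks under RA, 8 of 16 (50%, 28.0 to 72.0) overlapped an RARα peak, against 72.1% of the list, and these were 32.0% of the RARα peaks, against 48.8%. Under the control diet, 1 of 5 RARβ peaks overlapped an RARα peak (20%, 3.62 to 62.4), against 74.2%, and 1 of 22 RARα peaks (4.55%, 0.807 to 21.8) an RARβ peak, against 30.96%. These intervals lay below the share of the whole list, as did that for RARα peaks with RXRα under RA, and that for RARβ peaks with RARα under RA ended at it.

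Genes that work with Hox proteins or on Hox chromatin were counted in the same way. Of the 9 TALE homeodomain cofactors of Hox proteins (Pbx, Meis and Pknox genes), 6 and 7 had an RARα peak within 10 kb under the control diet and RA, 4 and 7 an RARβ peak, and 7 and 7 an RXRα peak. Of 17 Polycomb genes, which encode repressors of Hox clusters, 16 and 16 had an RARα peak, 13 and 13 an RARβ peak, and 13 and 15 an RXRα peak. Of 6 trithorax genes, which encode activators of Hox clusters, 6 had a peak in each list except RXRα under RA, where 5 had one. Of the 6 ParaHox and Cdx genes, which are relatives of Hox genes, 1 and 1 had an RARα peak, 0 and 1 an RARβ peak, and 4 and 3 an RXRα peak. Of the 12 Dlx and Irx genes, other homeobox genes in clusters, 6 and 6 had an RARα peak, 3 and 1 an RARβ peak, and 4 and 3 an RXRα peak. Over all protein-coding genes, the shares given above were 63.2% and 64.6% for RARα, 45.1% and 55.9% for RARβ and 62.6% and 62.9% for RXRα. No test sets these short lists apart from them.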

How the data were processed

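ChIP-seq reads of 35 bp (1 library per receptor and diet) and 1 input library were processed by the authors, who aligned the reads to mm10 with Bowtie and called peaks with MACS, and the submitters' processing notes also name CASAVA 1.4. The deposited files hold 1 peak list per library, with the peak caller's score, which the authors did not normalize between libraries. No score was below 50. The input was not analysed here on its own.

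The lists (245004 peaks) were read as deposited with Python 3.11.15 and pandas 2.3.3. Gene spans, microRNAs and promoter windows came from RefSeq tables of GRCm38.p6, and strands from GENCODE M1 by symbol, for 20583 of 21887 protein-coding genes including all 39 Hox genes. As a check of the build, 13.2% to 40.5% of the peaks on the 4 Hox chromosomes lay within 1 kb of a GRCm38 start, against 2.92% to 3.97% with NCBIM37 positions, so the NCBIM37 genome was used for no coordinate or sequence. No promoter window was in the table for 17 Hox genes (among them Hoxa4, Hoxb2, Hoxb3, Hoxb5, Hoxb6, Hoxb7, Hoxb9, Hoxb13, Hoxc5, Hoxc6, Hoxc8, Hoxc9, Hoxc10, Hoxc11, Hoxc12 and Hoxc13).

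Peaks were assigned by midpoint, a peak counted as shared when the overlap reached 25% of both widths, and regions were peaks of the 6 lists merged where they overlapped by at least 1 base. Regions were named by a rule: the highest-scoring peak of each list in each cluster, regions called in all 6 lists, and regions called by a receptor under 1 diet only with a score of at least 100; the further regions named were chosen after their values were seen. Genes were chosen by symbol, and 1 of the 39 enters the counts but is not reported here on its own. Wilson 95% intervals (SciPy 1.17.1) cover counting error only. The counting scripts were tested on simulated peaks. With 1 library per receptor and diet no test between diets or receptors was made. The members and gene lists were chosen with earlier results of these data known. Alternatives were a score minimum of 100, lists of equal length, other distances, extensions and overlaps and, added after seeing the data, all starts of the promoter table and leaving out peaks at other genes' starts.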

Additional observations from a re-analysis of the deposited data

Results flagged for a closer look

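The number of Hox genes with a peak within 10 kb of the start moved in opposite directions between the diets for different receptors. Under RA it was higher by 5 for RARβ and lower by 1 for RARα, a gap of 6 genes between these receptors. Against RXRα, where it was lower by 3, the gap was 8 genes. Each count comes from 1 library, and the difference between receptors was not tested. With lists of equal length, RARβ had 5 Hox genes in the control list and 3 in the RA list (45.1% and 41.7% of all genes), RARα 13 and 16 (48.4% and 44.3%), and RXRα 1 and 2 (21.0% and 21.8%), so the directions were then the opposite ones for all 3 receptors. The share of all genes moved the same way as the Hox count for RARβ and RXRα and the other way for RARα. With a score of at least 100 the counts were 0 and 3 for RARβ (23.1% and 41.2% of all genes), 16 and 22 for RARα (53.9% and 56.9%) and 7 and 6 for RXRα (50.1% and 52.4%).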

How the results depend on the processing

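Of 99 values recomputed under an alternative, 56 moved by less than the counting interval or stayed within 1.5 times the count and 43 did not. The cause was not tested, beyond the fewer peaks that each stricter setting leaves. Values follow the order RARα control, RARα RA, RARβ control, RARβ RA, RXRα control and RXRα RA. Hox genes with a peak numbered 6, 3, 1, 1, 3 and 1 within 1 kb of the start. With a score of at least 100 they numbered 16, 22, 0, 3, 7 and 6, and with lists of equal length 13, 16, 5, 3, 1 and 2. Any base of a peak within 10 kb, or all starts of the promoter table, left each count within 1.5 times.

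Peaks in the extended clusters numbered 11, 15, 0, 5, 13 and 14 with a score of at least 100. With lists of equal length they numbered 9, 10, 5, 5, 4 and 5, without extension 16, 15, 2, 11, 12 and 15, and with 50 kb RARβ had 2 under the control diet. Leaving out peaks at other genes' starts kept each count within 1.5 times.

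Between diets, 90.9% of RARα control peaks were shared with a score of at least 100. Of RARβ control peaks 0% were shared without extension, and of RARβ RA peaks 0% with a score of at least 100 or without extension and 40% at equal length. At equal length 100% of RXRα control peaks were shared. Between receptors, RARα control peaks lay at RXRα peaks in 27.3% with a score of at least 100 and in 11.1% at equal length. For RARα RA peaks this was 20% under both settings, as was the share of RARβ RA peaks at RARα peaks. Any shared base changed none of the 12 shares by more than the counting interval.

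No paired analysis was possible because no test was made and each receptor and diet has 1 library, so leaving out a replicate was not an option. The reads behind each list are unknown, scores cannot be compared between lists as levels, 1 start per gene was used, and neighbouring Hox genes share peaks.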
